A study of Mus musculus with 4 samples.

Results

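The intronic SNPs are single-base differences between C57BL/6J (B) and DBA/2J (D) mice at which the deposited tables give the location as an intron and the annotation as intronic, on chromosomes 1 to 19, with different bases listed for B and D. This rule took 252783 of the 311375 SNP and gene entries that the 4 tables hold together, in 9101 genes. The intronic reads were summed per gene and set against the exonic reads of the same gene in the 3778 genes with 40 or more reads of each kind over the 4 pools. These member genes hold 215715 of the intronic SNPs, 88.0% of the 2297487 intronic reads and 35144 exonic SNPs. Another 2654 genes had intronic and exonic reads but fewer than 40 of one kind and entered the fit without being members.

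Each library came from the gonadal fat pad of F1 mice of B and D, with the mother's strain written first in the name of the cross. All animals were on chow, their age is given as 8 weeks in the labels and as a later age in the methods of the study, and each library is a pool of RNA from several animals. By label there was 1 pool for each cross and sex. The female pools held RNA of 3 (BxD) and 2 (DxB) animals, and each of the male pools that of 3. Every animal carries both alleles, so the allele ratio was taken within each pool, and the 4 pools were the replicates.

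The labels of 2 pools are in doubt. At 247 X-linked SNPs with reads of both alleles 46.9% of reads in the BxD female pool carried D, against 1.76% in the pool labelled DxB female, 42.9% in the pool labelled BxD male and 83.5% in the DxB male pool. Thus the pool labelled as female carried almost only the B allele of the X chromosome and the pool labelled BxD male carried both, which goes against these 2 labels, and the names of their files give the other cross and sex. Males carry only the mother's X chromosome, which is of D in the DxB cross. The DxB male pool had 1384 B beside 6998 D reads at these SNPs, which that chromosome alone would not give. The reason was not tested. The comparison of introns with exons uses neither cross nor sex. Counts are also given without the pool labelled DxB female and the pool labelled BxD male, and these counts keep the DxB male pool.

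Introns are copied into the primary transcript and cut out as the RNA is spliced, and the excised intron is broken down quickly. Reads in introns therefore come mostly from RNA that has not yet been spliced and follow transcription more closely, while reads in exons come mostly from mature mRNA, whose level also depends on how fast the mRNA decays. The libraries were made from polyadenylated RNA, in which unspliced transcripts are a minor part. Intronic entries can also hold reads from exons that the gene model does not list, or from another gene within the intron.

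The sequences below show the SNPs on which the results turn, as 29 bases of the plus strand of mm9 from 5′ to 3′, with the B base of the SNP in capitals. In each name, the B base, its position on the chromosome and the D base are joined. In the substitution names positions are counted from the start of the chromosome. The first set holds the most-read intronic SNPs of 2 genes with many intronic reads (Synpo2, Car3) and of 2 genes of lipid metabolism (Lpl, Lpin1).
Synpo2, T122809992C, chr3:122809978-122810006: ggaagctttgaaacTgtgtgaatggccgc
Car3, C14864504T, chr3:14864490-14864518: atctaatggcaagaCgcaatttgtgacac
Lpl, G71426035C, chr8:71426021-71426049: ccttctgagtgagaGgtgatcccgatggc
Lpin1, C16546182G, chr12:16546168-16546196: aaagcagctacatcCatcagcctgggaga

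The next set holds the most-read intronic and the most-read exonic SNP of Dci, a gene in which the allele ratios of the 2 kinds of SNP differed, and the most-read intronic SNP of another 3 such genes.
Dci, intronic, C24573284G, chr17:24573270-24573298: gtgagtgcccctccCcacacacacacacc
Dci, exonic, C24573149G, chr17:24573135-24573163: atcttctcagctggCctggacttgctgga
Anxa3, intronic, C97257353T, chr5:97257339-97257367: cttgattttctcatCcctgctgctttagg
Nnt, intronic, T120128783C, chr13:120128769-120128797: taagcagctggcttTacttgataggtcaa
Adora1, intronic, T136110625C, chr1:136110611-136110639: tagggatgatacttTgctcgaaggaggca

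The last set holds much-read intronic SNPs at which 1 allele had over 90% of the reads. The SNPs of Eef2 and Sap30bp, genes of the plus strand, lie 2 bases from an annotated exon, and in each of them the capital T follows a g, so that the B sequence reads gt, the letters with which most introns start.
Eef2, T80640981C, chr10:80640967-80640995: gactgtgtgtctggTaagccttgggtggg
Sap30bp, T115795097G, chr11:115795083-115795111: ggcggagcgactggTgagacttgagctgg
Sap30bp, T115796791A, chr11:115796777-115796805: cagtaagcagtcggTgggtaaatcttcca
Hcfc1r1, A23811500G, chr17:23811486-23811514: ctctattcttctccAgtctttcccccagg
Ncapg2, T117671004C, chr12:117670990-117671018: caaatccattgtatTcactagaagacatt
Ghr, G3295023A, chr15:3295009-3295037: tctcagacaaaataGcaagagttggaagt

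Intronic reads were few per SNP. The pools had between 414739 (DxB male) and 722648 (BxD female) intronic reads, 9.58% to 12.6% of their allele specific reads. The median intronic SNP had 2 reads over the 4 pools against 58 at the median exonic SNP, and 96086 intronic SNPs had a single read. The median member had 221 intronic reads at 34.5 SNPs and 1026 exonic reads at 6 SNPs. At 40 reads, an even allele share has a 95% Wilson interval of 35.2% to 64.8%, and at 400 reads of 45.1% to 54.9%, counting error only. These intervals take the reads as independent. A read that covers neighbouring SNPs is counted at each of them, and both mates of a pair are counted. For sums over SNPs the intervals are therefore too narrow. Of the intronic reads, 16.6% lay inside an exon of the GENCODE M1 annotation, 10.9% in an exon of the same gene and 5.96% in an exon of another gene. Of the intronic entries, 91.8% lay within the annotated span of the gene they name. The rest lay outside it or named a gene that the annotation does not hold. The bulk libraries cannot tell fewer cells of a type from less RNA per cell. Of 14 adipocyte markers 5 had reads at exonic SNPs, and they held 4.42% to 5.89% of the exonic reads of a pool, against 0.059% to 0.106% for 3 of 13 macrophage markers and 0.528% to 0.685% for 4 of 7 fibroblast markers. Brown adipocyte markers (2 of 4) reached 0.046%, in the pool labelled BxD male, and markers of epididymis and ovary (3 of 8) 0.008%, in the DxB male pool.

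Over all intronic SNPs the D share of reads was 46.3% ± 0.31 (SD, n = 4 pools). Over all exonic SNPs it was 45.8% ± 0.54. In the members, the D share was 46.2% ± 0.32 in introns and 46.5% ± 0.62 in exons. The difference came to 0.01 percentage points in the BxD female pool, -0.72 in the pool labelled DxB female, 0.16 in the pool labelled BxD male and -0.86 in the DxB male pool, with a mean of -0.35 ± 0.51. It did not differ from 0 beyond the spread of the pools (exact permutation test over the pools, two-sided, p = 0.5, where 4 pools allow no p below 0.13). With the same weight for each gene the D share was 47.2% ± 0.25 in introns and 46.4% ± 0.07 in exons, higher in introns in 4 of 4 pools by 0.78 ± 0.18 points (exact permutation p = 0.13, the smallest that 4 pools allow).

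The D share at intronic SNPs was lower the higher the number of other listed SNPs within 50 bp, the length of a read. It was 48.7% ± 0.22 at SNPs without a neighbour, 45.9% ± 0.32 with 1 neighbour, 44.8% ± 0.57 with 2, 36.7% ± 1.03 with 3 to 5 and 18.6% ± 2.10 with more than 5. The 4 pools kept this order, and exonic SNPs had a like order, from 47.2% ± 0.68 without a neighbour to 16.7% ± 1.87 with more than 5. The alignment allowed up to 3 mismatches per read, and its part in this order was not tested. Whether D variants were masked in the reference, as the methods state, is not certain, since a supplement of the study reads as if they were not, and this bears on every D share given here. Intronic SNPs where B has G or C and D has A or T had a D share of 43.6% ± 0.37, and those with the reverse had 49.0% ± 0.33. Along the gene the D share was 48.4% ± 0.42 in the most 5′ of 5 equal parts and 46.2% ± 0.29 in the most 3′, which held 63643 of the intronic SNPs against 36955.

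**Figure D1:**
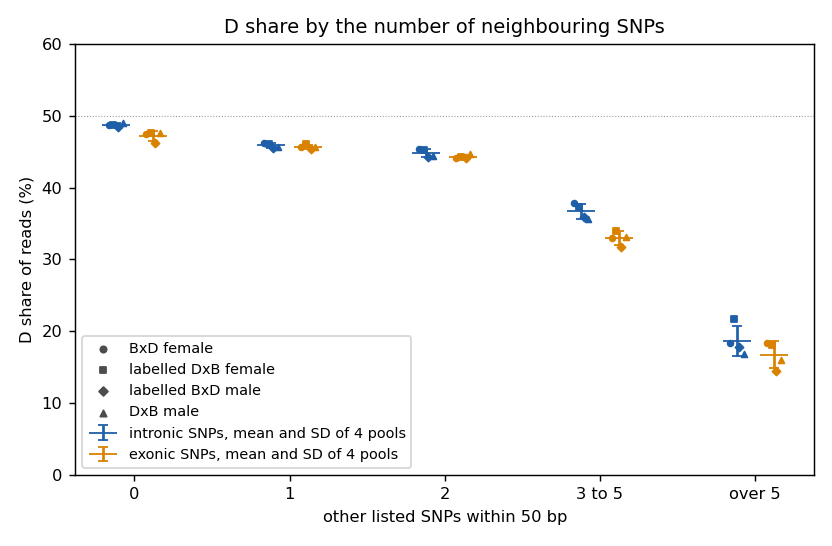
D share of reads (%, vertical axis) at intronic and exonic SNPs by the number of other listed SNPs within 50 bp (horizontal axis). Symbols are the 4 pools, and the horizontal mark and bar are their mean and SD. Both kinds of SNP lie near 48% without a neighbour and below 22% with more than 5.

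Some SNPs had nearly all of their reads from 1 allele. Among the 43900 intronic SNPs with 10 or more reads, 1651 had under 1% of the reads from one of the alleles (3.76%, 95% Wilson interval 3.59% to 3.94%), 1247 of them with B reads and 404 with D reads. Among 39085 exonic SNPs there were 2178 (5.57%, interval 5.35% to 5.80%), 2049 with B reads and 129 with D reads. These SNPs, called single-allele SNPs here, held 6.79% of the intronic and 5.77% of the exonic reads. Without them the D share was 46.8% ± 0.34 in introns and 48.4% ± 0.48 in exons. The study sequenced DNA of D mice at a subset of exonic SNPs with B reads only and verified none of them. Its controls with D reads only were verified. Whether the other single-allele SNPs are true differences between the strains was not tested. Among intronic SNPs, single-allele SNPs were more frequent next to exons. Of 45 SNPs 1 or 2 bp from an annotated exon 7 were of this kind (15.6%, exact binomial interval 6.49% to 29.5%), against 1081 of 31786 beyond 100 bp (3.40%, interval 3.20% to 3.61%). At 3 to 10 bp there were 12 of 252 (4.76%, interval 2.48% to 8.17%) and at 11 to 50 bp 126 of 3359 (3.75%, interval 3.13% to 4.45%), and these intervals include the share beyond 100 bp. The D share at SNPs 1 or 2 bp from an exon was 75.1% ± 1.37, or 63.1% ± 1.44 without the SNP of Eef2 (1644 of the 5012 reads), at SNPs 3 to 10 bp away 39.7% ± 1.09 and at SNPs 11 to 50 bp away 46.7% ± 0.19. Counted by SNP, 11 of the 45 at 1 or 2 bp had over 90% B reads and 5 had over 90% D reads.

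The main question was whether the allele ratio in introns equals that in exons of the same gene. The log2 ratio of D to B reads was compared between the 2 kinds of SNP with edgeR's quasi-likelihood test of the allele by region term, and a gene is named as called where the Benjamini-Hochberg adjusted p was under 0.05. Of the 6432 genes tested, 643 (10%) were called. Of the 3778 members 499 (13.2%) were called, 283 with a higher D share in introns and 216 with a lower one. Over all genes tested, 6.2% were called with a higher and 3.79% with a lower D share in introns. The difference had the same sign in all 4 pools in 487 of the 499. Since the genes were called on these same pools, this count is no separate support. The median log2 difference was -0.01 in the members and 0.01 in all genes tested, and the median of its size was 0.41 in the members and 0.60 in all genes tested. With a block term that pairs the alleles of each pool, 946 members were called (1114 of all genes), among them the 499. Without the pool labelled DxB female 331 members were called, and without both pools whose labels are in doubt 156 were, all of them among the 499.

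The calls were not spread evenly over the members. Where 10% or more of a gene's exonic reads were at single-allele SNPs, 145 of 257 members were called (56.4%), and where no exonic read was at such a SNP, 320 of 3294 (9.71%). Single-allele SNPs are defined from the same counts that the test uses. Many such reads make the exonic ratio of a gene extreme by definition, so this contrast is largely built in. Where 50% or more of the intronic reads lay within 1 kb, 204 of 1123 were called (18.2%), and otherwise 295 of 2655 (11.1%). With the single-allele SNPs left out of both kinds, 302 members were called, of which 284 were among the 499 with the same sign, and 40 of the 499 had no reads left in one of the kinds. Of the member genes 8 had the same counts as another member, since both were listed with the same SNPs, and 2 of the calls repeat another in this way.

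**Figure D2:**
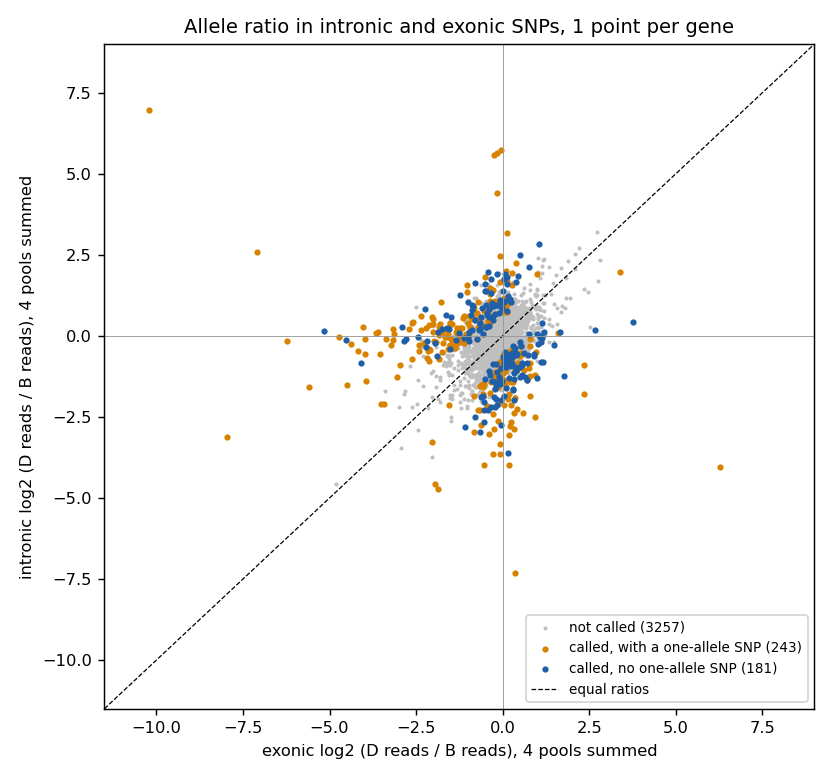
Log2 ratio of D to B reads in intronic SNPs (vertical axis) against exonic SNPs (horizontal axis), 4 pools summed, for the 3681 members with 10 or more reads of each allele in both kinds. Points are genes: 3257 grey ones were not called, 243 orange ones were called and have a single-allele SNP, and 181 blue ones were called and have none. Of all members called for the difference, 186 were called in introns only and 206 in exons only.

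Taken on their own, introns gave 615 called members (16.3%, against 10.5% of the 9101 genes tested), 256 with more D (3.86% of all genes tested) and 359 with more B reads (6.64%). Exons gave 694 (18.4%, against 18.6% of 7927), 285 with more D (5.12% of all) and 409 with more B reads (13.5%). In 192 members the same allele was higher in both kinds (84 with D and 108 with B higher), and 37 of these were also called for the difference. In 27 the other allele was higher, and all 27 were called for the difference. Another 396 were called in introns only, 186 of them for the difference too, and 475 in exons only, 206 of them for the difference. With the pool as a block, 405 members had the same allele higher in both kinds and 1556 members were called in exons.

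Across the 3681 members with 10 or more reads of each allele in both kinds, the intronic and exonic log2 ratios had a Pearson's r of 0.22 and a Spearman's rho of 0.26. Genes are not independent replicates, and both ratios come from the same libraries. Without genes that have a single-allele SNP, r was 0.31 over 2782 genes. Between pools, the intronic log2 ratios of 1788 members with 40 or more intronic reads in each pool had an r of 0.64 to 0.85, and the exonic ones of 3158 members 0.91 to 0.94. Within a gene, the intronic SNPs before and after the middle read of the gene, with 40 or more reads on each side, had an r of 0.40 over 2946 genes, and the exonic ones 0.49 over 3079. Without genes that have a single-allele SNP, these parts of a gene had an r of 0.36 in introns (2122 genes) and 0.50 in exons (2299 genes). Among 1760 of the genes with 40 or more intronic reads in each pool, intronic and exonic ratios had an r of 0.20 (rho 0.30), and among the 1149 of them without a single-allele SNP an r of 0.35.

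Introns with the most reads had ratios that repeated closely over the pools. Synpo2, which encodes the actin-binding protein synaptopodin-2, had the most intronic reads (45454). Its intronic D share stood at 36.0% in the BxD female pool, 33.4% in the pool labelled DxB female, 32.0% in the pool labelled BxD male and 34.3% in the DxB male pool, and its exonic D share was 39.2%, 36.7%, 34.8% and 34.1% in the same order. B was higher in both kinds in every pool, and both kinds were called (intronic log2 -0.85, adjusted p = 1.7e-06; exonic -0.71, adjusted p = 0.03), with a difference of -0.14 ± 0.33 (SE). Tmem179, a membrane protein gene, had an intronic D share of 21.1%, 19.9%, 20.2% and 21.4% and an exonic one of 23.1%, 21.9%, 21.3% and 20.8%, so both kinds were near 21% in all pools. Of its intronic reads 80.1% lay within 1 kb.

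In Htra3 and Lrp3, which also had many intronic reads, introns were called and exons were not. The difference between the kinds was not called in the fit of all pools without the block. Htra3, a secreted serine protease, had 36.5% ± 1.69 D in introns and 46.9% ± 1.46 in exons, and introns were called while the difference was not (log2 -0.63 ± 0.34, adjusted p = 0.32; with the pool as a block -0.62, adjusted p = 5.7e-08). Lrp3, a receptor of the LDL receptor family, had 64.5% ± 2.15 D in introns and 49.2% ± 1.14 in exons (log2 0.87 ± 0.37, adjusted p = 0.17; with the block 0.91, adjusted p = 2.8e-10). The Lrp3 difference was 0.30 (adjusted p = 0.72) with exon-column SNPs that are annotated as intronic left out, and it was called without the BxD female pool (0.85, adjusted p = 0.015). In both genes the shares of the 2 kinds did not overlap between pools. The same held for Dgat2 and Acacb, also not called for the difference without the block. How many of all members lack overlap is not given here, so this is no separate support. Klc1, a kinesin light chain, had 45.3% ± 1.08 and 47.9% ± 0.42, and Slc27a1, a fatty acid transport protein, 51.2% ± 1.42 and 53.3% ± 1.41, and neither gene was called in any of the tests without the block.

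Among members called in both kinds with 10 or more reads of each allele in both, those with the highest intronic D ratio were Eef2, Atp1a4, E330026B02Rik and Ifi202a, and those with the lowest were C1s, Cacna1e, C1r and 2410017I17Rik. Ifi202a, an interferon-inducible gene of the p200 family, had 87.0% ± 2.82 D in introns and 81.5% ± 2.83 in exons, with 49.3% of its intronic and 61.7% of its exonic reads at single-allele SNPs (log2 difference 0.52, adjusted p = 0.56; with the block 0.56, adjusted p = 0.047). E330026B02Rik had 87.5% ± 2.33 D in introns and 67.2% ± 2.92 in exons and was called for the difference (log2 1.80 ± 0.38, adjusted p = 0.0025) over 90 intronic reads, without any such SNP. Atp1a4, a sodium pump subunit, had 93.2% ± 11.4 and 86.9% ± 3.69, with 17.9% of its exonic reads at single-allele SNPs. Cacna1e, a calcium channel subunit, had 4.15% ± 1.71 D in introns and 3.32% ± 1.16 in exons. Such SNPs held 26.6% of its intronic and 22.6% of its exonic reads. C1s and C1r, the serine proteases that start the classical complement pathway, were listed with many of the same SNPs, and their most-read intronic SNP is the same position inside an annotated exon, so their counts (4.05% ± 3.66 and 4.94% ± 5.02 D in introns) cannot be told apart. In C1s single-allele SNPs held 74.4% of the intronic and 52.7% of the exonic reads, and in C1r 72.9% and 50.7%. Both genes were called for the difference, and both lost the call without intronic SNPs inside annotated exons and without the pool labelled BxD male.

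In a smaller set of members the intronic reads were spread over many SNPs. The rule for it was set after the values were seen: no single-allele SNP in either kind, under 50% of the intronic reads within 1 kb and under 50% inside annotated exons, 10 or more intronic and 3 or more exonic SNPs. It was met by 1542 members, of which 101 were called (6.55%, against 13.2% of the members and 10% of all genes tested), 49 with a higher and 52 with a lower D share in introns. The size of the log2 difference in the 101 was between 0.57 and 3.24, with a median of 1.21. The sign was the same in all pools in 98, which for called genes is no separate support. Of the 101, 49 were called in introns only, 31 in exons only, 6 in both and 15 in neither. Without the pool labelled DxB female 41 of them were called again and without both pools in doubt 12, and without the most-read intronic SNP of each gene 91 were.

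Of the genes in this set with 100 or more reads of each kind, those with the largest differences were described further, 8 in each direction. Gpnmb, a transmembrane glycoprotein of macrophages and pigment cells in which DBA/2J is known to carry a premature stop codon, had the largest difference. Its intronic D share was 35.1%, 36.7%, 33.3% and 35.9% in the BxD female pool, the pool labelled DxB female, the pool labelled BxD male and the DxB male pool, and its exonic D share was 5.66%, 5.43%, 5.92% and 5.49%. Exons thus had a far lower D share than introns in every pool (log2 difference 3.24 ± 0.75, adjusted p = 0.0057), with 140 intronic and 4782 exonic reads. All 3 of its intronic SNPs with 10 or more reads were above the exonic share, and introns alone were not called (log2 -0.72, adjusted p = 0.25). Without the pool labelled DxB female the difference was not called.

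Dci, the enoyl-CoA isomerase that helps to oxidise unsaturated fatty acids, had 42%, 43.7%, 44.3% and 49.6% D in introns and 15.9%, 16.2%, 19.8% and 18.5% in exons in the same order of pools. The difference was 1.91 ± 0.26 (adjusted p = 3.1e-05), and 49 of the 57 intronic SNPs with 10 or more reads lay above the exonic share. Exons were called for B (log2 -2.08, adjusted p = 4.5e-06) and introns were not (-0.17, adjusted p = 0.58). Adora1, the adenosine A1 receptor through which lipolysis is held back, had 81.5%, 81.2%, 76.6% and 79.5% D in introns and 44.4%, 43.7%, 42% and 41.2% in exons. Here introns were called for D (log2 2.07, adjusted p = 2.2e-08) and exons were not, with a difference of 2.37 ± 0.41 (adjusted p = 0.00036). Its most-read intronic SNP lies 10458 bp from the nearest annotated exon. Of the intronic SNPs of Adora1 2 had 10 or more reads, both above the exonic share, and 376 of its 391 exonic reads were at 1 SNP.

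Among the other 5 genes with a higher D share in introns, Atg10, an enzyme of autophagosome formation, had 58.7% ± 7.10 D in introns and 25.8% ± 8.66 in exons. Padi2, which converts arginine to citrulline in proteins, had 58.0% ± 10.7 and 25.1% ± 6.57, Trim17, a tripartite motif protein, 77.0% ± 10.8 and 50.5% ± 1.56, and Lins2 77.2% ± 8.60 and 44.3% ± 0.87. Abcg3, a transporter of the ABCG family, had 53.9% ± 7.18 and 29.2% ± 13.1. In Abcg3 the lowest intronic share (46.5%, BxD female) lay just below the highest exonic one (46.7%, the pool labelled BxD male), and it was called with 9 of the 14 alternatives. Dci, Adora1, Atg10 and Lins2 were called with all 14 alternatives, and Gpnmb, Padi2 and Trim17 with 13. Not all of the 14 are a hard trial. Leaving out single-allele SNPs removes no read of a gene in this set, and the block called all 499 members again. Leaving out both pools with doubtful labels is not among the 14, and after it 12 of the 101 genes of this set were called again.

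In the opposite direction, Anxa3, a calcium- and phospholipid-binding annexin, had 15.0%, 18.8%, 17.3% and 19.2% D in introns and 39.6%, 46.6%, 42.4% and 43.3% in exons. The difference was -1.84 ± 0.24 (adjusted p = 1.7e-05) over 2507 intronic reads, and introns were called for B (log2 -2.11, adjusted p = 6e-21) while exons were not. Of its 26 intronic SNPs with 10 or more reads 20 lay below the exonic share. Nnt encodes the mitochondrial nicotinamide nucleotide transhydrogenase, and C57BL/6J is known to carry a deletion within it. Its intronic D share was 35.2%, 29.5%, 50% and 28.6%, and its exonic D share 73.6%, 66.7%, 66.8% and 63.4%. Exons were called for D (log2 1.21, adjusted p = 6e-05), introns were not (-0.68, adjusted p = 0.091), and the difference was -1.88 ± 0.32 (adjusted p = 0.00028).

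Clec16a, an endosomal protein needed for the clearance of mitochondria, was called for B in introns (36.5% ± 4.01 D) and for D in exons (68.9% ± 2.74), and all 14 of its intronic SNPs with 10 or more reads lay below the exonic share. 2810408P10Rik had 12.6% ± 8.19 D in introns over 78 SNPs and 47.3% ± 12.7 in exons. Mon1a, which acts in the fusion of vesicles, had 17.0% ± 2.44 and 40.2% ± 4.62, Anks6, an ankyrin repeat protein of cilia, 19.1% ± 12.4 and 46.1% ± 5.84, Mfap3, a microfibril-associated protein, 21.4% ± 11.1 and 45.6% ± 0.70, and Rwdd3 39.1% ± 5.04 and 65.3% ± 6.32. In each of these 8 genes the highest intronic D share lay below the lowest exonic one. They were picked for large called differences in these same pools, so the lack of overlap is no separate support. All 8 were called with all 14 alternatives apart from Mfap3 and Rwdd3, which each lost the call without 1 pool, the BxD female pool for Mfap3 and the DxB male pool for Rwdd3. As above, the 14 include alternatives that could hardly change these calls and do not include leaving out both pools with doubtful labels.

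**Figure D3:**
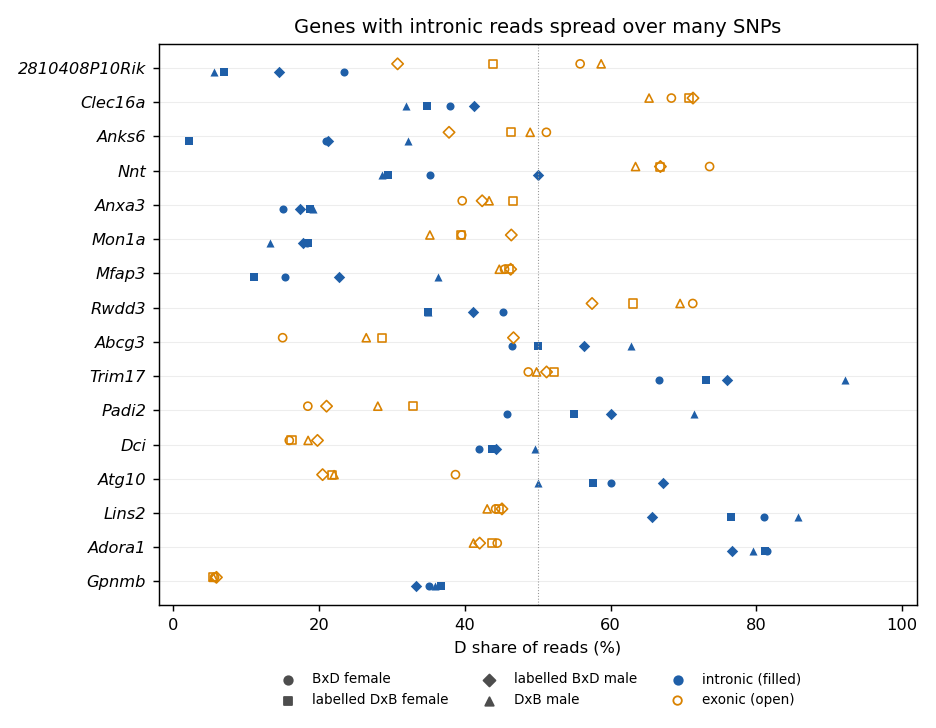
D share of reads (%, horizontal axis) in the 4 pools for the 16 genes named from the members with widely spread intronic reads. Filled blue symbols are intronic and open orange ones exonic SNPs, and the shape gives the pool. Genes run from the lowest to the highest log2 difference of intronic minus exonic ratio. The kinds overlap in none of them apart from Abcg3, but the genes were picked for large called differences in these pools.

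A further 3 genes of this set, chosen after their values were seen for their part in mitochondrial metabolism, were Acadl, Coq9 and Slc25a20. Acadl, the long-chain acyl-CoA dehydrogenase, had 28.0% ± 1.98 D in introns and 41.0% ± 2.12 in exons (log2 -0.83 ± 0.22, adjusted p = 0.015), with 36 of 45 intronic SNPs below the exonic share. Coq9, which acts in the synthesis of coenzyme Q, had 66.4% ± 6.12 and 45.4% ± 1.67 (log2 1.20 ± 0.30, adjusted p = 0.011). Slc25a20, which carries acylcarnitines into mitochondria, had 51% ± 7.08 and 33.3% ± 2.33 (log2 1.09 ± 0.32, adjusted p = 0.03). The call was lost without the pool labelled DxB female and without the DxB male pool in all 3 genes, without the BxD female pool also in Acadl, and in Slc25a20 whichever pool was left out and with both spacings of SNPs, so that it was called with 8 of 14 alternatives.

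The largest differences of all were different in kind. Among the 415 called members with the same sign in all pools and 10 or more reads of each allele in both kinds, the 6 largest were Eef2, Sap30bp, Timp2, Limch1, Ncapg2 and Fbxl13, and the 6 smallest were 2410017I17Rik, A830023I12Rik, Lars, Serpina3h, Hcfc1r1 and Acyp2. Eef2, the elongation factor that moves the ribosome along the mRNA, had 13 B and 1631 D reads at its only intronic SNP, 2 bp from an annotated exon, and 0.09% ± 0.03 D in exons, where 98.2% of reads were at single-allele SNPs. Sap30bp, a transcriptional co-repressor subunit, had 85.2% ± 2.63 D in introns and 0.68% ± 0.45 in exons, and its 2 most-read intronic SNPs also lie 2 bp from an exon. Limch1, Ncapg2 and Fbxl13 had 98.0% ± 0.51, 98.0% ± 0.48 and 98.4% ± 1.49 D in introns, with 97.2%, 95.7% and 97.1% of the intronic reads at single-allele SNPs, and exonic shares of 47.0% ± 2.87, 45.9% ± 5.36 and 49.7% ± 5.34. Of the intronic reads of Limch1 97.6% lay inside an annotated exon, and its most-read intronic SNP lies in an exon of another gene. Without intronic SNPs inside annotated exons its log2 difference was -0.55 (adjusted p = 0.58). Timp2, an inhibitor of matrix metalloproteinases, had 46.7% ± 14.6 D in introns and 1.39% ± 0.43 in exons, where 98.0% of the reads were at such SNPs. In these 6 genes single-allele SNPs moved with the result, and with them left out Sap30bp was still called (log2 3.01, adjusted p = 0.015), Timp2, Limch1, Ncapg2 and Fbxl13 were not, and Eef2 had no intronic read left.

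On the other side, A830023I12Rik had 0.68% ± 0.27 D in introns, with 99.3% of the intronic reads at single-allele SNPs inside an annotated exon, against 54.9% ± 10.2 in exons. Lars, a leucyl-tRNA synthetase, and Acyp2, an acylphosphatase, had 5.73% ± 3.97 and 7.17% ± 2.70 D in introns and 53.3% ± 2.37 and 48.6% ± 3.01 in exons, with 87.1% and 81.4% of intronic reads at such SNPs. Of their intronic reads 88.0% and 85.3% lay inside an annotated exon, and the most-read intronic SNP of each lies in an exon of another gene. Without intronic SNPs inside annotated exons the log2 difference was -0.21 (adjusted p = 0.91) in Lars and -0.23 (adjusted p = 0.76) in Acyp2. 2410017I17Rik had the widest gap on this side, with 5.61% ± 1.38 D in introns and 98.7% ± 0.28 in exons. Single-allele SNPs held 91.1% of its intronic and 98.5% of its exonic reads. A single SNP outside the annotated span of the gene held 87.2% of the intronic reads. With exon-column SNPs annotated as intronic left out, 2410017I17Rik could not be fitted. Hcfc1r1 had a single intronic SNP, 2 bp from an exon, with 7.40% ± 3.53 D against 52.0% ± 2.67 in exons, and no single-allele SNP. Serpina3h, a serine protease inhibitor of a family of near-identical genes in which reads can be split, had 28.9% ± 18.7 and 85.1% ± 5.23 from 45 intronic reads. Its most-read intronic SNP lies outside the annotated span of the gene.

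The 27 members in which opposite alleles were called in introns and exons included 15 with B higher in introns and 12 with D higher there. In 17 of the 27 no exonic read was at a single-allele SNP. Besides Clec16a, 4 of these, named after their values were seen, were Mef2b, Hebp1, Bckdhb and Hfe. Mef2b, a transcription factor gene, had 34.7% ± 1.75 D over 4570 intronic reads and 77.2% ± 24 over 103 exonic reads, and all 61 of its intronic SNPs with 10 or more reads were below the exonic share. The DxB male pool alone had an exonic share under 50% (42.9%). Of the intronic reads of Mef2b 58.5% lay within 1 kb, and its most-read intronic SNP lies outside the annotated span of the gene. Hebp1, a heme-binding protein, had 32.9% ± 5.68 and 63.3% ± 4.05, and Hfe, which controls iron uptake, had 71.3% ± 6.27 and 29.7% ± 3.18, with all 11 intronic SNPs above the exonic share. Bckdhb, a subunit of the dehydrogenase that breaks down branched-chain amino acids, had 35.9% ± 2.53 and 63.6% ± 3.68, but 39.0% of its intronic reads were at single-allele SNPs and the call was lost without them.

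In 2 further genes the difference rested on 1 exonic SNP. Pecam1, the endothelial adhesion molecule, and Agpat6, an acyltransferase of triacylglycerol synthesis, were named after their values were seen as called genes without a single-allele SNP. Pecam1 had 53.3% ± 4.04 D over 21 intronic SNPs and 2.86% ± 1.16 at its only exonic SNP. Agpat6 had 46.8% ± 1.70 over 22 intronic SNPs and 1.04% ± 0.59 at its only exonic SNP. The exonic SNP of Agpat6 thus lay just above the limit of 1% that defines a single-allele SNP.

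Of 38 adipocyte genes listed for this tissue 14 were members. In introns 5 of them were called (Dgat2 and Ghr with D higher, Car3, Lep and Lpin1 with B higher), in exons 2 (Acaca for D and Lpin1 for B), and 3 were called for the difference (Ghr up, Car3 and Lpl down). Over all genes tested the called shares were 10.5% in introns, 18.6% in exons and 10% for the difference. The median log2 difference of the 14 was -0.09, against 0.01 over all genes tested. With the pool as a block 8 were called, adding Lep, Dgat2, Cidec (log2 -0.49, adjusted p = 0.0041), Acaca (-0.79, adjusted p = 0.0049) and Acacb (-0.39, adjusted p = 0.009).

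Car3, the carbonic anhydrase abundant in fat cells, had the most exonic reads of all members (1454112) and 22897 intronic reads. Its intronic D share was 31.6%, 34.5%, 37.4% and 36.0% in the BxD female pool, the pool labelled DxB female, the pool labelled BxD male and the DxB male pool, and its exonic one 55.3%, 56.6%, 48.8% and 57.6%. The intronic shares all lay below the exonic ones (log2 difference -1.17 ± 0.25, adjusted p = 0.0035). Lpl, the lipoprotein lipase that frees fatty acids for uptake, had 42.8%, 44.8%, 38.0% and 40.7% D in introns and 58.3%, 57.0%, 54.2% and 55.4% in exons (log2 difference -0.85 ± 0.21, adjusted p = 0.01). Neither kind was called on its own for Lpl, while the difference was, and without the DxB male pool it was not (-0.83, adjusted p = 0.066). Lep, the hormone leptin, had 34.0% ± 2.69 and 49.7% ± 2.13, with 85.7% of its 328 intronic reads within 1 kb (log2 -0.90 ± 0.50, adjusted p = 0.33; with the block -0.92, adjusted p = 1.7e-05).

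Lpin1, the phosphatidate phosphatase that makes diacylglycerol, had 32.2%, 31.6%, 36.0% and 31.5% D in introns and 29.5%, 32.6%, 33.5% and 33.5% in exons. Both kinds were called for B (log2 -0.91, adjusted p = 1.5e-06, and -0.92, adjusted p = 0.006), and their difference was 0.01 ± 0.25. Dgat2, which makes triacylglycerol, had 58.8% ± 3.72 D in introns and 50.6% ± 2.56 in exons over 18671 and 97628 reads, with a difference of 0.45 ± 0.48 (adjusted p = 0.66; with the block 0.47, adjusted p = 0.00013). Acaca, the acetyl-CoA carboxylase of fatty acid synthesis, had 52.1% ± 7.60 in introns and 65.0% ± 2.39 in exons, and its isoform Acacb 43.2% ± 2.33 and 50.1% ± 1.33. Cidec, a protein of the lipid droplet surface, had 43.4% ± 5.81 and 51.2% ± 1.09, with 95.2% of its intronic reads at 1 SNP. The glucose transporter Slc2a4, the adrenergic receptor Adrb3, Agpat2, Pde3b and Me1 had mean intronic shares between 46.0% and 56.4% and were called in no test.

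Ghr, the growth hormone receptor, was the adipocyte gene with the highest intronic D share, 78.0% ± 2.80 against 42% ± 4.57 in exons (log2 difference 2.31 ± 0.34, adjusted p = 6.4e-05). Of its 380 intronic reads 63.2% were at the single SNP shown above, which had 240 D reads and no B read, and without it the difference was -0.06.

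**Figure D4:**
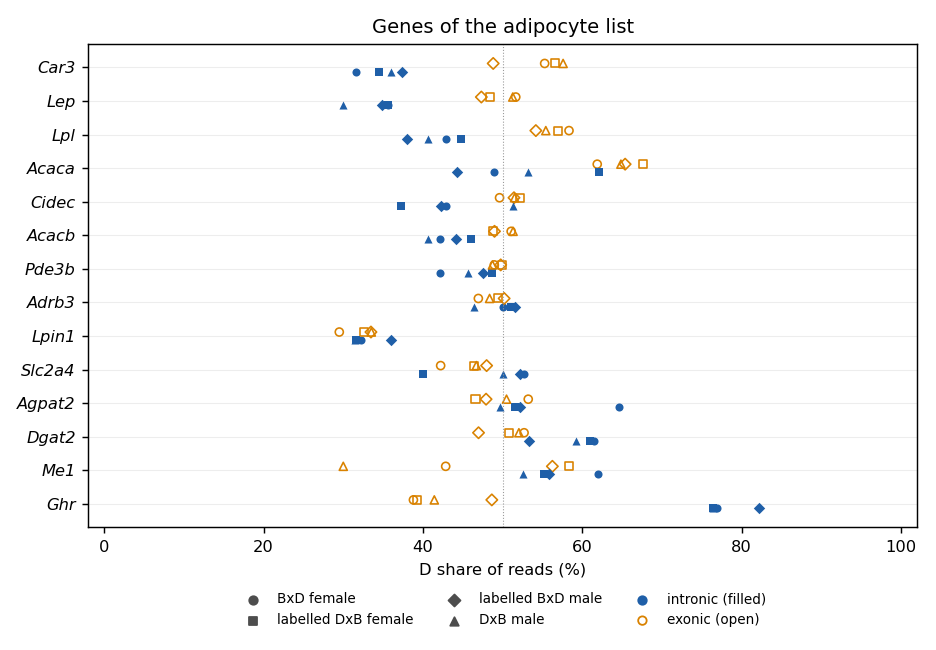
D share of reads (%, horizontal axis) in the 4 pools for the 14 member genes of the adipocyte list. Filled blue symbols are intronic and open orange ones exonic SNPs, and the shape gives the pool. In Car3 and Lpl the intronic shares lie below all exonic ones, in Lpin1 both kinds lie between 29% and 37%, and Ghr lies apart with an intronic share above 76%.

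Among other listed genes, to be read against the 10% called over all genes tested, 1 of 9 members of insulin and cAMP signalling was called for the difference, Adcy5, the adenylyl cyclase (25.2% ± 13.4 D in introns, 50.3% ± 3.47 in exons, adjusted p = 0.042, 49.2% of the intronic reads at single-allele SNPs; called with 6 of 14 alternatives, and lost whichever pool was left out). Of 9 matrix and adhesion genes 1 was called, Fbn1, the main protein of microfibrils, with 20.9% ± 3.44 D in introns and 52.5% ± 0.86 in exons (log2 -2.09 ± 0.42, adjusted p = 0.0016). With the block 4 were, adding Lamc1 (-0.44, adjusted p = 0.041), Itgav (1.13, adjusted p = 0.014) and Mmp14 (-0.81, adjusted p = 5.1e-05). Of 15 genes of transcription and chromatin 4 were called, and 6 with the block, which added Ncoa2 (-0.69, adjusted p = 0.04) and Zbtb16 (0.31, adjusted p = 0.048). Nr3c1, the glucocorticoid receptor, had 21.7% ± 9.75 and 50.1% ± 8.56, Zbtb20 20.9% ± 5.82 and 56.0% ± 6.78, and the remodeller Chd9 41.3% ± 3.89 and 53.2% ± 0.90. Tcf7l2 had 42.9% ± 11 in introns and no D read among 109 exonic reads. Single-allele SNPs held 52.5% of the intronic reads of Nr3c1, 54.8% of those of Zbtb20, 11.1% of those of Chd9 and all exonic reads of Tcf7l2. With such SNPs left out Nr3c1, Zbtb20 and Chd9 were not called, Nr3c1 was not called without the BxD female pool, and Chd9 lost the call whichever pool was left out. Of 2 nuclear non-coding RNA genes Snhg11, a host gene of small nucleolar RNAs, was called (74.3% ± 11.3 and 56.7% ± 1.46, adjusted p = 0.009), but not without the BxD female pool or the pool labelled DxB female. The median log2 differences of these 4 lists were -0.12, -0.31, -0.10 and 1.0.

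Imprinted genes, of which only the copy from 1 parent is active, had intronic ratios that turned with the pool. Of 39 listed genes 7 were members and none was called for the difference by edgeR, with or without the block, or by DESeq2, and none had an unadjusted p under 0.05. The test takes the mean of D over B across pools, in which a difference by parent of origin cancels, so the lack of calls says nothing on such a difference. Plagl1, a zinc finger gene read from the paternal copy, had 98.6% D in introns in the BxD female pool, 94.7% in the pool labelled DxB female, 2.96% in the pool labelled BxD male and no D read among 426 in the DxB male pool, which allows a share of up to 0.70%. Its exonic D share was 82.8%, 82.1%, 3.35% and 0.28% in that order. Meg3, a non-coding RNA read from the maternal copy, had the reverse, with 0%, 0.45%, 97.7% and 100% D in introns, where 99.6% of its reads lay within 1 kb. Snrpn, read from the paternal copy, had 100%, 100%, 5.88% and 0% D in introns from 66 reads. In these genes the pool labelled DxB female fell beside the BxD female pool and the pool labelled BxD male beside the DxB male pool.

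Trappc9 and H13 showed the same order with narrower ratios in introns than in exons. Trappc9, whose intron holds the paternally read RNA Peg13, had 67.4%, 74.8%, 33.1% and 25.6% D in introns and 92.6%, 88.7%, 9.99% and 12.7% in exons. The log2 difference of introns and exons in Trappc9 was -2.61, -1.41, 2.16 and 1.26 in the 4 pools, with a fitted value of 0.12. H13, a signal peptide peptidase read mainly from the maternal copy, had 38.5%, 48.8%, 54.7% and 53.6% D in introns and 30%, 34.7%, 66.5% and 64.5% in exons. Over the 4 pools the SD was 24.5 points in introns and 45.8 in exons for Trappc9, and 7.40 and 19.2 for H13, and whether these spreads differ was not tested. Gatm, an enzyme of creatine synthesis, and the adaptor Gab1 had D shares of 50% or more in the introns of every pool.

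**Figure D5:**
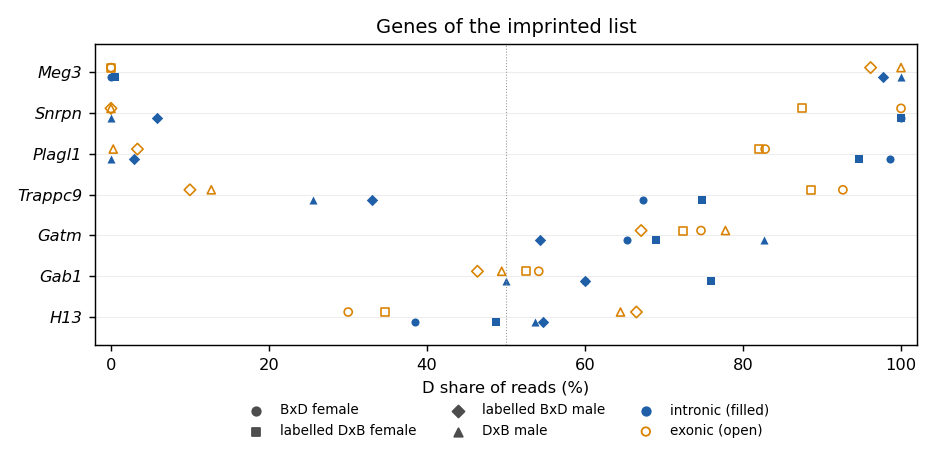
D share of reads (%, horizontal axis) in the 4 pools for the 7 member genes of the imprinted list. Filled blue symbols are intronic and open orange ones exonic SNPs, and the shape gives the pool. In Meg3, Snrpn, Plagl1, Trappc9 and H13 the BxD female pool and the pool labelled DxB female lie on one side and the other pools on the opposite side.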

How the data were processed

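RNA was measured in 4 pools. The authors made the deposited counts: polyadenylated RNA was sequenced, the mates of each pair were aligned as single reads with mrsFAST to mm9 with up to 3 mismatches and, according to the methods but not to a supplement, with D variants masked, unmapped reads were aligned with TopHat (version 1 in the submitters' processing notes, which also list CASAVA), uniquely mapped reads were kept, and raw read counts per SNP and allele were deposited. Strand is not given in the sources used here, so a gene cannot be told from an antisense partner, and 3440 intronic positions are listed for more than 1 gene. Reads carry no molecular identifiers, so intervals cover counting error only, and for independent reads. Neighbouring SNPs can share reads, so counts of SNPs above or below an exonic share are not counts of separate observations.

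Entries with the same base for both strains (1115 intronic) were left out. The B base equalled the mm9 base at 100% of the SNPs used. Counts were summed per gene, allele, pool and kind of SNP. The difference of introns and exons was the allele by region term of edgeR 4.0.16 (R 4.3.3; quasi-likelihood test, 16 libraries, no block, TMM factors within the 8 intronic and the 8 exonic libraries), and allele tests used 8 libraries each. P-values were adjusted over all genes tested and called under 0.05. Without the block, the libraries of a pool entered as if they were separate samples. These p-values therefore weigh an effect against the spread of read counts between pools. That spread includes changes that both alleles of a pool share, and is not the spread of the allele ratio itself. No filter on low counts was used, and scripts were tested on simulated data. Both alleles of a library come from the same animals, so the pool is a true pair: deviations of the alleles from their means had an r of 0.20 to 0.33 in introns and 0.42 to 0.61 in exons over 3778 genes, and values fitted with this block are given where it changes the call of a named gene. Alternatives were DESeq2 1.42.0, other library sizes and read minimums, spaced SNPs, other SNP selections, the block and leaving out each pool. Leaving out both pools with doubtful labels was added after seeing the data.

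Genes named were the 8 members with most intronic reads, the 6 largest and 6 smallest called differences with the same sign in all pools and 10 or more reads of each allele in both kinds, the 4 highest and 4 lowest intronic ratios among the 191 members called in both kinds with 10 or more reads of each allele in both, and members of the adipocyte and imprinted lists. Other genes were chosen after their values were seen, as were the set with widely spread reads and single-allele SNPs as a way to describe genes. Members and lists were chosen with earlier results of these data known. Sequences are from mm9 and exons from GENCODE M1. The sequence at 1 further SNP is not reported here. Python 3.11.15 (pandas 2.3.3, scipy 1.17.1, matplotlib 3.10.9) was used for summaries.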

Additional observations from a re-analysis of the deposited data

Results flagged for a closer look

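In 7 of the 93 groups of 4 pools examined, 1 pool stood apart from the others by Dixon's test, where chance flags about 5% of groups. In introns, the pool labelled BxD male had the lowest D share of Atp1a4 (76.3%, others 96.7% to 100%) and the highest of Lpin1 (36.0%, others 31.5% to 32.2%) and Ghr (82.1%, others 76.4% to 77.0%). The DxB male pool had the lowest intronic D share of Lep (30%, others 34.9% to 35.6%), and the BxD female pool the highest of Agpat2 (64.6%, others 49.6% to 52.1%). In exons, the DxB male pool had no D read of Sap30bp (0%, others 0.88% to 0.94%) and the highest D share of 2410017I17Rik (99.2%, others 98.6%).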

How the results depend on the processing

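With single-allele SNPs left out, 329 genes (302 members) were called for the difference and 687 (439) in exons, the difference in D share over the members was -1.64 points, r between introns and exons was 0.32 and the intronic D share 46.8%. With the replicate block (pool by region), 1114 genes (946 members) were called for the difference and 2597 (1556) in exons, and 405 members were called in both kinds for the same allele. Without the most-read intronic SNP of each gene, introns gave 616 genes, the share difference was -0.92 points and r was 0.29. With exon-column SNPs annotated as intronic left out, r was 0.23. With the first SNP of clusters within 18 bp the intronic D share was 47.0%, with SNPs 50 bp apart 47.6%, and with equal weight per gene the share difference was 0.78 points. Leaving out 1 pool at a time gave 426 to 472 genes (331 to 380 members) for the difference, with the fewest without the pool labelled DxB female, 722 to 826 (483 to 546) in introns, 1112 to 1268 (474 to 590) in exons, share differences of -0.52 to -0.18 points, intronic D shares of 46.2% to 46.4% and r of 0.22 to 0.27. Without both pools with doubtful labels, 189 genes (156 members) were called for the difference, 454 (319) in introns and 793 (310) in exons, where fewer libraries were tested, and r was 0.26. Of the named genes' values under the alternatives 590 kept direction and side of the threshold, 11 reversed, 12 lost and 11 gained the call, and 6 could not be fitted. The reversed log2 differences were, without single-allele SNPs, Limch1 -0.55, Fbxl13 -0.066, 2410017I17Rik 1.84, A830023I12Rik 1.73 and Ghr -0.051; without the most-read SNP, Limch1 -0.57 and Ghr -0.065; without SNPs inside annotated exons, Limch1 -0.55 and A830023I12Rik 1.33; with SNPs 50 bp apart, A830023I12Rik 1.70; and with exon-column SNPs annotated as intronic left out, C1r 0.27. For the alternatives that leave out SNPs, the SNPs removed hold the change by construction; the cause of the other changes was not tested. Depth limits most introns. At 40 independent reads, an even share has an interval of 35.2% to 64.8%, and a share under 7.5% cannot be told from 0.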
